A study of Rattus norvegicus with 4 samples.

Results

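Ion channels and calcium handling genes of vascular smooth muscle were examined as a set of 10: the potassium channel genes Kcnma1, Kcnmb1 and Kcnn4, the calcium and cation channel genes Cacna1c, Trpc1 and Trpc6, and the genes Itpr1, Atp2a2, Pln and Stim1 of the sarcoplasmic reticulum. They were chosen by name, and every probe set annotated to exactly 1 of these symbols was used, 21 of the 31099 probe sets on the array and 10 of the 14218 genes that it names. Smooth muscle cells from the aorta of Sprague-Dawley rats were cultured, grown with serum for 3 days and kept without it for 3 days before 24 h of exposure. The groups were IL-1b (interleukin-1b, an inflammatory cytokine, 2.5 ng/mL), its vehicle (0.1% bovine serum albumin, BSA, with 10 mM acetic acid), PDGF-DD (a platelet-derived growth factor, 30 ng/mL) and its vehicle (0.01% BSA). Each group had 1 array and no replicate, so no test was possible, each difference compares one array with another, and precision is limited by the number of arrays.

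Contraction of arterial smooth muscle follows the calcium concentration of its cytosol. Calcium enters through L-type channels and through TRPC cation channels, and is released from the reticulum through IP3 receptors. The SERCA pump, held back by phospholamban, returns it to the store, and STIM proteins sense the store's filling and open entry channels. Large-conductance calcium-activated (BK) channels let potassium out and so oppose depolarisation. In arterial muscle that leaves its contractile state, loss of BK and L-type channels and gain of the intermediate-conductance channel encoded by Kcnn4 are commonly described.

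Within this set, Pln was more than 2-fold lower with either factor than with either vehicle by its brightest probe set, although not under every setting tried. Kcnma1, Kcnmb1 and Cacna1c were more than 2-fold lower with IL-1b than with its vehicle, but were also more than 2-fold lower with the PDGF-DD vehicle than with the IL-1b vehicle. For Kcnma1 with IL-1b, the 2-fold difference was also not kept under every setting tried. Itpr1 was lower with IL-1b, and the SERCA gene Atp2a2 was nearly level by its brightest probe set. Kcnn4 was at the floor on every array. The floor is an intensity of 28.1, the 40th percentile of all values after scaling. Lower values were set to it, and a fold against a value at the floor is a lower bound, written as at least that fold. Of the 21 probe sets, 9 were above the floor on all 4 arrays, 7 on some arrays and 5 on none. By array, 15 were above it with IL-1b and 15 with its vehicle, 9 with PDGF-DD and 13 with its vehicle.

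**Figure D1:**
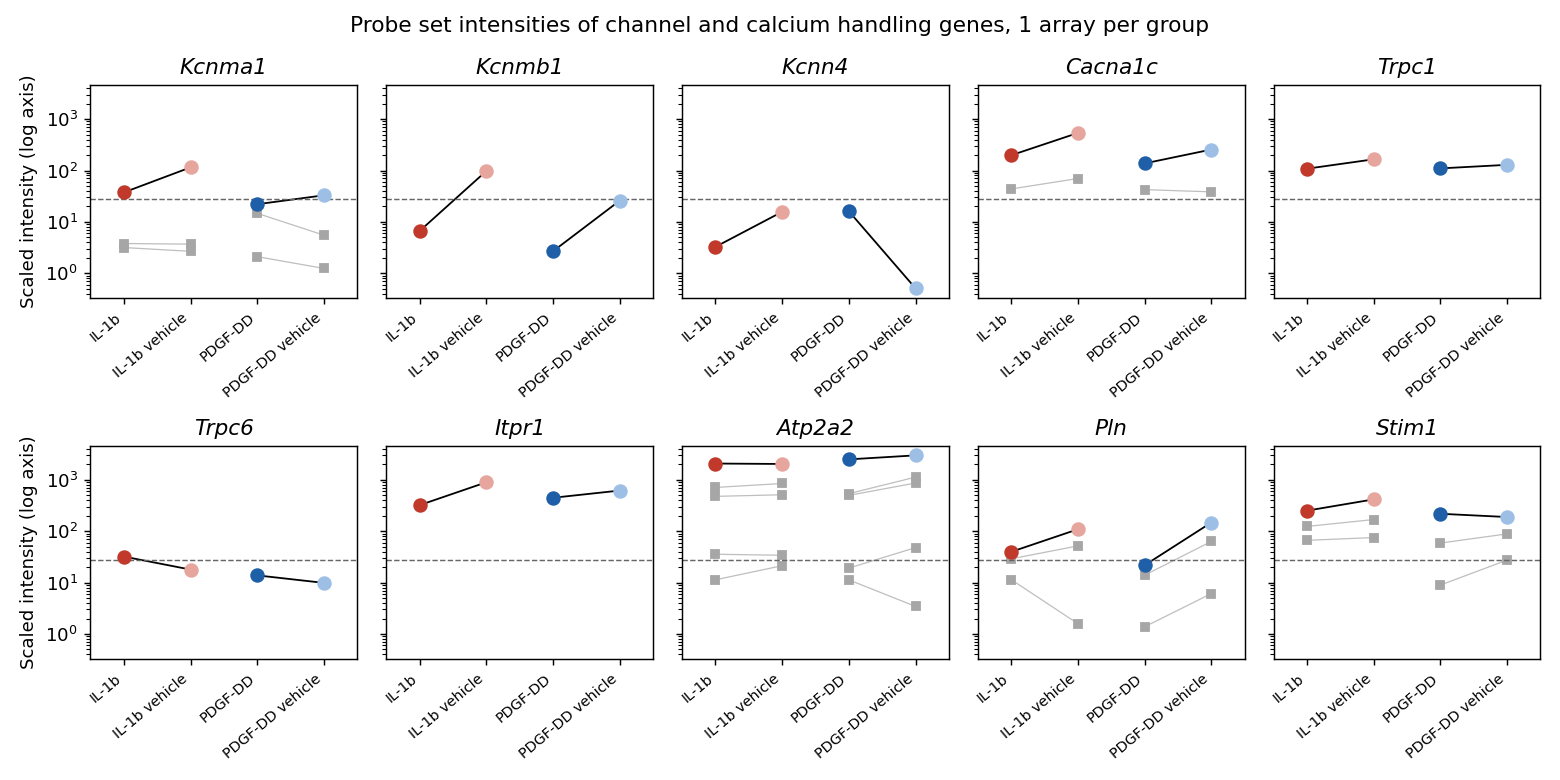
Scaled intensity (log axis) of every probe set of the 10 genes on the 4 arrays, with each factor left of its own vehicle; coloured circles are the probe set that stands for the gene, grey squares its other probe sets, and the dashed line is the floor of 28.1. Pln lies lower with IL-1b and PDGF-DD than with either vehicle, the brightest Atp2a2 probe set stays between 2043 and 3003, and Kcnn4 and most values of Kcnmb1 and Trpc6 lie under the floor.

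The BK channel genes were dim and uneven between the vehicles. Kcnma1, which encodes the channel's pore, had an intensity of 37.4 with IL-1b against 115 with its vehicle, and 22.0 with PDGF-DD, under the floor, against 32.9 with its vehicle. The IL-1b vehicle array was the high one, and the other arrays lay close to the floor. Kcnma1 was thus 3.08-fold lower with IL-1b than with its vehicle and at least 1.17-fold lower with PDGF-DD than with its own. With the PDGF-DD vehicle in place of its own, IL-1b gave a Kcnma1 log2 ratio of 0.19, and set against the IL-1b vehicle PDGF-DD was at least 4.10-fold lower. Its other probe sets were under the floor on all arrays. The Kcnma1 log2 ratio with IL-1b was -0.54 with the mean of all its probe sets. With the floor at the 60th percentile it was -0.13. Kcnmb1 encodes the beta subunit that raises the channel's calcium sensitivity in smooth muscle. It had intensities of 6.63 with IL-1b against 97.9 with its vehicle, and of 2.68 with PDGF-DD against 25.9 with its vehicle. Only the IL-1b vehicle array was above the floor, so Kcnmb1 was at least 3.49-fold lower with IL-1b than with its vehicle, and no fold can be given for PDGF-DD against its own. Kcnn4 had intensities of 3.26 with IL-1b, 15.7 with its vehicle, 16.1 with PDGF-DD and 0.506 with its vehicle, which have no order under the floor.

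The sequences before the annotated starts of the BK subunit genes and of Pln are shown because the BK genes encode parts of the same channel and Pln was lower with both factors than with both vehicles. RefSeq promoter windows on build GRCr8 matched 8 of the 10 genes by symbol, Kcnn4 and Trpc1 aside, and the 250 bases upstream of the start were searched on both strands. Motifs were the CArG box bound by serum response factor, the AP-1 site TGANTCA, the NFAT core GGAAAA, the GC box GGGCGG and the TATA box TATAAA. The GC and TATA boxes were added after the other motifs gave no match. Windows lie at chr15:351675-351924, plus strand for Kcnma1, chr10:19061849-19062098, plus strand for Kcnmb1 and chr20:33172244-33172493, plus strand for Pln, and read 5′ to 3′, with GC boxes in capitals (pairs of them overlap in Kcnma1).
Kcnma1: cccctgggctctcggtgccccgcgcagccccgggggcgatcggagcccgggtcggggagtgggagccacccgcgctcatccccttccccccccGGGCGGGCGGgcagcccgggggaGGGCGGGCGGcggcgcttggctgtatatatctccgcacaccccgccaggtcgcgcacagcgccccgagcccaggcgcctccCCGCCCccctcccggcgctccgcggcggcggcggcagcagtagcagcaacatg
Kcnmb1: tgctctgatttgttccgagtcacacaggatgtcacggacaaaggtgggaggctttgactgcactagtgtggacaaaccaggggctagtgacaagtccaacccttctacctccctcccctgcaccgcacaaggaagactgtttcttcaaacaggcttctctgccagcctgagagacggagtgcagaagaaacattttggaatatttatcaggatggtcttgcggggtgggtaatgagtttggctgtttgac
Pln: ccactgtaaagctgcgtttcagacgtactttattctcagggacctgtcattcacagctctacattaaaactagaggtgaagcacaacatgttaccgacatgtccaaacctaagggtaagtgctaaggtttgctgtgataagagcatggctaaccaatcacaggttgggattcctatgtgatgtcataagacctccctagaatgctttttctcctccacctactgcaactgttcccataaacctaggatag
Of the 8 windows, 0 held a CArG box, an AP-1 site, an NFAT core or a TATA box, and 3 held a GC box. Among 33469 windows of the same length, 501 held a CArG box, and 6.34%, 21.6%, 12.9% and 30.5% held the AP-1 site, the NFAT core, the TATA box and the GC box. The Kcnma1 window held 5 GC boxes with 79.6% G and C, and those of Kcnmb1 and Pln none with 50.8% and 44.0%, beside a median of 51.2% over all windows. These counts describe the letters of these windows only.

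Among the channels that admit calcium, Cacna1c was the most variable. Cacna1c encodes the pore of the L-type channel that opens on depolarisation. Its intensity was 198 with IL-1b against 538 with its vehicle, and 138 with PDGF-DD against 256 with its vehicle. Both factor arrays were lower than both vehicle arrays, by 2.72-fold for IL-1b and 1.86-fold for PDGF-DD against their own vehicles, but the vehicles themselves were 2.10-fold apart. Against the PDGF-DD vehicle, Cacna1c was 1.29-fold lower with IL-1b. The second Cacna1c probe set, dimmer at intensities between 38.4 and 69.8, gave log2 ratios of -0.67 for IL-1b and 0.14 for PDGF-DD, so it did not repeat the lower value with PDGF-DD.

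Trpc1, a subunit of receptor- and store-linked cation channels, had an intensity of 108 with IL-1b against 165 with its vehicle, and 110 with PDGF-DD against 129 with its vehicle. It was 1.52-fold and 1.17-fold lower, less than 2-fold in both. Trpc6, a receptor-operated channel, had intensities of 32.1 with IL-1b against 17.9 with its vehicle, and of 13.8 with PDGF-DD against 9.87 with its vehicle. Trpc6 was above the floor on the IL-1b array alone, by a margin that gives at least 1.14-fold.

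The reticulum genes differed among themselves. Itpr1, the IP3 receptor that releases stored calcium, had an intensity of 322 with IL-1b against 899 with its vehicle, and of 449 with PDGF-DD against 620 with its vehicle. Both factor arrays were below both vehicle arrays. Itpr1 was 2.79-fold lower with IL-1b and 1.38-fold lower with PDGF-DD than with their own vehicles, and IL-1b was 1.92-fold below the PDGF-DD vehicle.

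Pln encodes phospholamban, a small membrane protein that inhibits the SERCA pump. Its intensity was 39.7 with IL-1b against 109 with its vehicle, and 21.8 with PDGF-DD, under the floor, against 148 with its vehicle. The factor arrays were low and the vehicle arrays high, and the vehicles were 1.35-fold apart. Pln was 2.75-fold lower with IL-1b and at least 5.27-fold lower with PDGF-DD than with their own vehicles. Against the other vehicle array it was 3.72-fold lower with IL-1b and at least 3.90-fold lower with PDGF-DD. A second Pln probe set had intensities of 29.0 with IL-1b against 51.9 with its vehicle, and of 14.0 with PDGF-DD against 63.3 with its vehicle. It ran the same way with smaller log2 ratios, -0.84 with IL-1b and at least 1.17 below its vehicle with PDGF-DD, while the remaining probe set was under the floor throughout. The 2-fold difference of Pln with IL-1b was lost with the mean of all its probe sets, at a log2 ratio of -0.77, and with the floor at the 60th percentile, at -0.06. With that floor it was also lost for PDGF-DD, at -0.49.

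Atp2a2 encodes SERCA2, the pump that phospholamban inhibits. Its brightest probe set had an intensity of 2083 with IL-1b against 2043 with its vehicle, and 2511 with PDGF-DD against 3003 with its vehicle. The array with PDGF-DD was 1.20-fold lower than its vehicle, and that with IL-1b 1.02-fold higher. Other Atp2a2 probe sets were lower with PDGF-DD by more, as 540 against 1132 and 500 against 869 show, log2 ratios of -1.07 and -0.80. The same probe sets gave -0.26 and -0.10 with IL-1b. Stim1, the calcium sensor of the store, had an intensity of 252 with IL-1b against 418 with its vehicle, and of 219 with PDGF-DD against 189 with its vehicle. The IL-1b vehicle array was the high one, 2.21-fold above the PDGF-DD vehicle, and with IL-1b Stim1 was 1.66-fold lower than with its own vehicle. A second Stim1 probe set gave a log2 ratio of -0.59 with PDGF-DD, where the brightest gave 0.21. With IL-1b it gave -0.45, where the brightest gave -0.73. The remaining Stim1 probe set gave -0.18 with IL-1b and was under the floor with PDGF-DD and its vehicle.

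**Figure D2:**
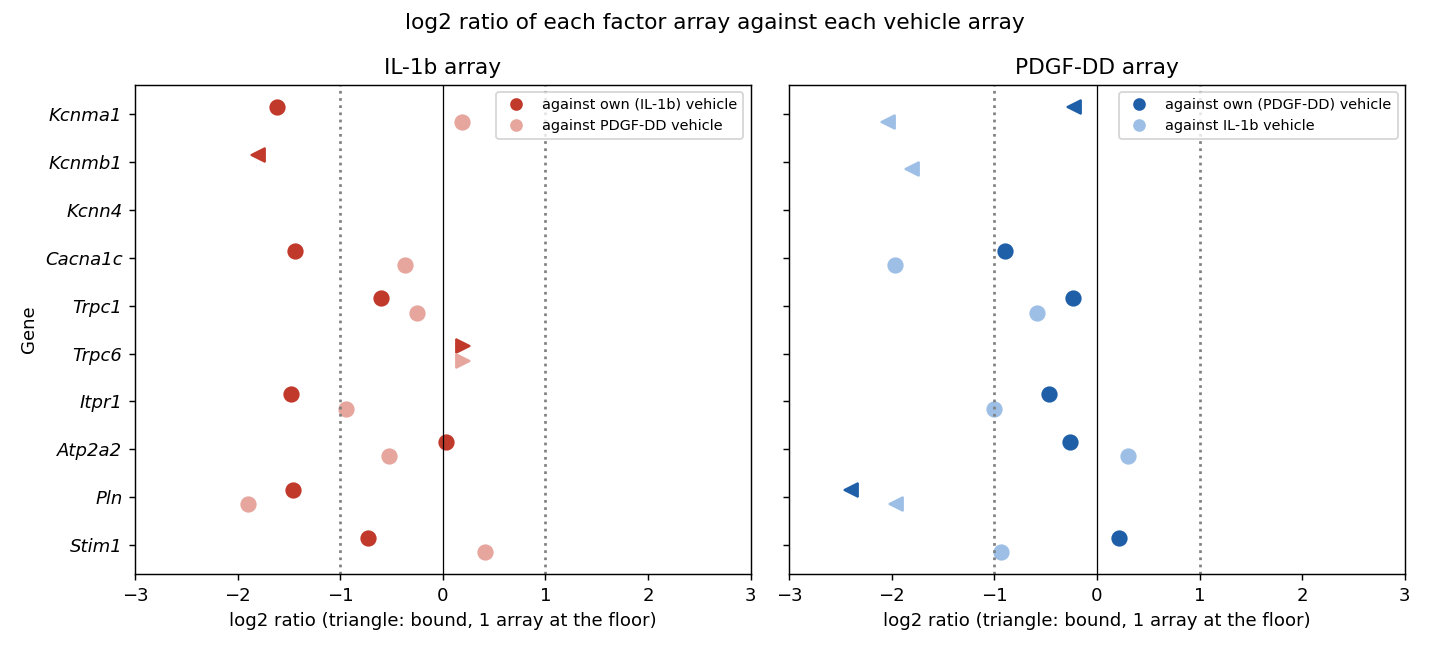
The log2 ratio of the IL-1b array (left) and the PDGF-DD array (right) for each gene, against its own vehicle (dark) and against the other vehicle (pale); triangles are bounds where 1 of the arrays was at the floor, and dotted lines mark 2-fold. Only Pln lies beyond 2-fold on the lower side against both vehicles in both panels.

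Counted over the set, 9 of the 10 genes exceeded the floor on 1 or both arrays of the IL-1b pair. Of these, 5 were at least 2-fold lower with IL-1b and 0 higher, with a median log2 ratio of -1.44. The median was -0.31 against the PDGF-DD vehicle, and -0.61 with the mean of all probe sets or with the floor at the 60th percentile. Kcnmb1 entered this count through the vehicle array alone. Over all 10679 genes compared, 5.42% were at least 2-fold lower and 6.15% higher, and the median was 0.02. For PDGF-DD against its vehicle 7 of the 10 could be compared, of which 1, Pln, was at least 2-fold lower and 0 higher, with a median of -0.26, and of -1.40 against the IL-1b vehicle. Pln was under the floor with PDGF-DD, so it was counted here through the vehicle array alone. Over all genes 4.67% were at least 2-fold lower with PDGF-DD, with a median of 0.01. Between the vehicles 4 of 8 genes, Kcnma1, Kcnmb1, Cacna1c and Stim1, were at least 2-fold lower with the PDGF-DD vehicle than with the IL-1b vehicle and 0 higher, where 4.67% of all genes were lower and 5.79% higher. Of these, Kcnmb1 was above the floor on the IL-1b vehicle array alone. Set against the other vehicle, 1 of 8 genes was at least 2-fold lower with IL-1b and 5 of 8 with PDGF-DD, beside 4.97% and 10.3% of all genes. Of those 5, Kcnma1, Kcnmb1 and Pln were under the floor with PDGF-DD and were counted through the IL-1b vehicle array alone. Against both vehicle arrays at once, 1 of 8 genes with IL-1b and 1 of 7 with PDGF-DD was at least 2-fold lower, Pln each time, beside 1.82% and 3.22% of all genes. With PDGF-DD, Pln was counted through the vehicle arrays alone. The log2 ratio with IL-1b less the one with PDGF-DD was -1.01 for Itpr1. For Kcnma1 it was -1.39, the widest it can be since PDGF-DD was under the floor, and -0.93 with no floor. These were the 2 of 7 genes at least 1 apart, beside 15% of all genes. For Pln it was 0.94 or more, with PDGF-DD at a bound.

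The size of these ratios can be set beside the vehicle pair, which holds no factor. For each gene a limit was taken from the 500 genes nearest in level: the 99th percentile of how far the vehicles lay apart, on the log2 scale in either direction. Among genes of the set above the floor on both arrays, 0 of 7 exceeded it with IL-1b, 0 of 5 with PDGF-DD and 0 of 7 between the vehicles. The last count is low by construction, since the vehicle ratios set the limit. The vehicles differ in BSA and acetic acid and are not replicates, so any effect of these is within the limit. Bounds cannot be placed against it in this way. Pln with PDGF-DD had a log2 ratio of -2.40 or lower beside a limit of 2.64. Kcnmb1 with IL-1b had -1.80 or lower beside 2.15. With the floor at the 20th percentile Pln had -2.77, and Kcnmb1, still at a bound, -3.60 or lower. No limit was taken at that floor, so these last values cannot be set beside 2.64 and 2.15. Itpr1 with IL-1b, at -1.48, had a limit of 2.22.

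Cell type markers and a measure of RNA integrity also differed between the arrays. The smooth muscle markers Acta2, Myh11, Tagln, Cnn1, Smtn, Lmod1 and Synpo2 were above the floor on all 4 arrays. Of these, 7 of 7 were at least 2-fold lower with IL-1b and with PDGF-DD than with their own vehicles. Over all genes these shares were 5.42% and 4.67%. Between the vehicles, 3 of 7 were at least 2-fold lower with the PDGF-DD vehicle than with the IL-1b vehicle. Against the other vehicle, 5 of 7 were that much lower with IL-1b and 7 of 7 with PDGF-DD. With PDGF-DD, other probe sets gave log2 ratios of -0.44 for Myh11 and -0.28 to 0.04 for Synpo2. The other Smtn probe set stayed more than 2-fold lower, and with IL-1b all were lower. The summed intensity of the 7 markers was 8570 with IL-1b against 28684 with its vehicle, and 4664 with PDGF-DD against 20227 with its vehicle. The summed intensity of 5 fibroblast markers was 7845 with IL-1b against 2288 with its vehicle, and 652 with PDGF-DD against 1363 with its vehicle, most of it Lum. Ptprc, Cd68 and Itgam of leukocytes and Pecam1, Kdr, Vwf and Tie1 of endothelium were under the floor on all arrays, and Tek was just above it on 2. Of 6 leukocyte markers Cd14 and Cd74 were above the floor, and the list summed to 4744 with IL-1b against 1256 with its vehicle, and 1244 with PDGF-DD against 1843 with its vehicle. Most of these differences was Cd74, at 3379 with IL-1b against 106 and 89.8 with PDGF-DD against 584. Cd14 was 1333 with IL-1b against 1121 and 1117 with PDGF-DD against 1220. Of 6 cardiac and skeletal markers Tnnt2 and Ckm were above the floor, and the list summed to 97.0 with IL-1b against 427 with its vehicle, and to 60.5 with PDGF-DD against 109 with its vehicle. Of 6 neuronal markers only Tubb3 was. Beta-actin probe sets at the 3′ and 5′ ends, whose ratio reflects RNA integrity, gave 3′ over 5′ ratios of 2.05 with IL-1b against 1.58 with its vehicle, and 1.37 with PDGF-DD against 1.26 with its vehicle. The part of these in the channel values was not tested, and fewer cells with a transcript cannot be told apart from less of it per cell.

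To see which genes shared the profile of Cacna1c, the most variable of the 5 genes above the floor on all 4 arrays, log2 intensities centred on each gene's mean were compared among 3009 genes. The nearest by Euclidean distance over the 4 arrays were Etfbkmt (0.14), Zdhhc23 (0.15), Nhsl2 (0.16), Fzd2 (0.17) and Samd11 (0.18). Fzd2, a WNT receptor and the brightest of them, had intensities of 999 with IL-1b against 2547 with its vehicle, and of 628 with PDGF-DD against 1360 with its vehicle. With 4 points this likeness is a description only.

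Other genes of the same pathway were counted from 8 lists: potassium channels, calcium channel subunits, TRP and store-operated entry, the reticulum, plasma membrane extrusion, chloride channels, calcium-dependent kinases with NFAT, and caveolae. Of 108 genes with a probe set, 27 were at the floor on all 4 arrays, among them the ryanodine receptors Ryr1, Ryr2 and Ryr3 and the voltage-gated channels Kcna2, Kcna3 and Kcna5. With IL-1b, 9 of 77 genes above the floor were higher by 2-fold or more and 11 lower, with a median log2 ratio of 0.06, beside 6.15% and 5.42% of all genes. With PDGF-DD, 4 of 73 were higher and 12 lower, with a median of -0.15, beside 4.24% and 4.67% of all genes. The same shares of all genes apply to the counts by list. Against both vehicle arrays at once, 4 of 75 genes were lower with IL-1b (Atp2a1, Casq2, Slc8a1 and Cav3) and 2 higher (Kcnn3 and Cacna1g), beside 1.82% and 3.16% of all genes. Kcnn3 and Cacna1g were above the floor on the IL-1b array alone, so they entered this count and the counts with IL-1b only through that array. With PDGF-DD 10 of 70 were lower and 4 higher (Kcnq5, Itpr3, Atp2b1 and Ano1), beside 3.22% and 3.44%. Of those lower, Atp2b4 was under the floor with PDGF-DD and was counted through the vehicle arrays alone.

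**Figure D3:**
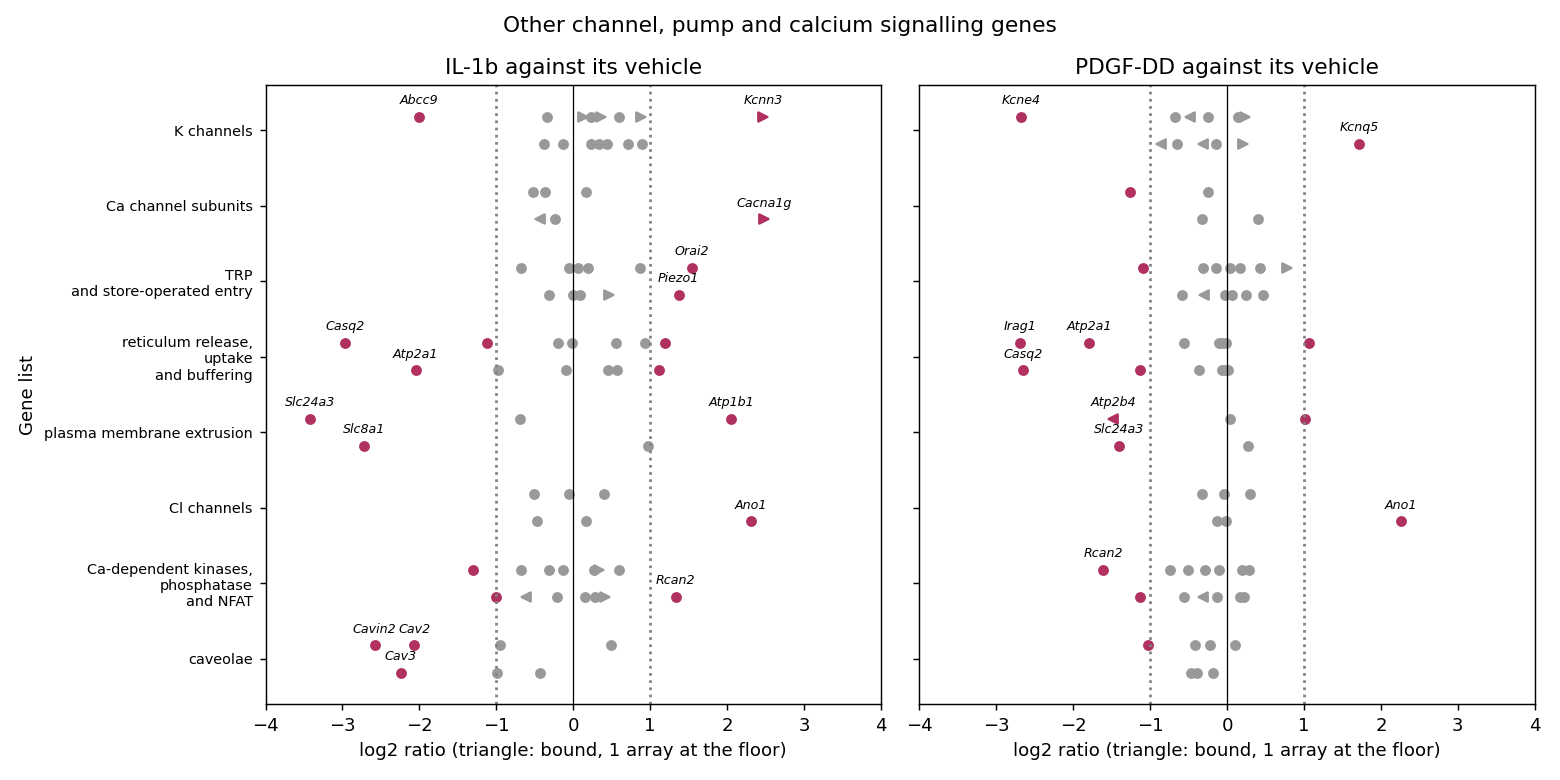
The log2 ratio of other channel, pump and calcium signalling genes by list, IL-1b (left) and PDGF-DD (right) against their own vehicles; each point is a gene above the floor on at least 1 array of the pair, coloured beyond 2-fold, and triangles are bounds. Casq2 and Atp2a1 lie on the lower side and Ano1 on the higher side in both panels.

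The reticulum list held the clearest neighbours of Pln. Casq2, calsequestrin, which buffers calcium inside the store, had an intensity of 52.4 with IL-1b against 409 with its vehicle, and 76.3 with PDGF-DD against 479 with its vehicle. Casq2 was 7.81-fold and 6.28-fold lower, its vehicles were 1.17-fold apart, and its other probe set gave log2 ratios of -2.81 and -3.41. Atp2a1, the SERCA isoform of fast skeletal muscle, was 4.13-fold and 3.47-fold lower, at 64.6 with IL-1b against 267 with its vehicle and 45.0 with PDGF-DD against 156 with its vehicle. Irag1, which couples cGMP-dependent kinase to the IP3 receptor, had an intensity of 725 with IL-1b against 1581 with its vehicle, and of 198 with PDGF-DD against 1276 with its vehicle. It was 2.18-fold lower with IL-1b and 6.44-fold lower with PDGF-DD. Against the PDGF-DD vehicle, Irag1 was 1.76-fold lower with IL-1b. Against the IL-1b vehicle, other IP3 receptors ran the other way from Itpr1 with IL-1b: Itpr3 was 2.28-fold higher and Itpr2 2.16-fold higher. Against the PDGF-DD vehicle, Itpr3 was 1.41-fold higher with IL-1b, but Itpr2 was 1.57-fold lower, the same way as Itpr1. With PDGF-DD against its own vehicle, Itpr3 was 2.09-fold higher and Itpr2 2.20-fold lower. Against the IL-1b vehicle, Itpr3 was 3.39-fold and Itpr2 1.54-fold higher with PDGF-DD. By count, 2 of 13 reticulum genes were higher by 2-fold or more and 3 lower with IL-1b, and 1 higher and 4 lower with PDGF-DD.

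Among potassium channels, 1 of 15 genes was at least 2-fold higher and 1 lower with IL-1b, and 1 of 12 each way with PDGF-DD. Kcnn3, a small-conductance calcium-activated channel, had an intensity of 155 with IL-1b against 5.73 with its vehicle, at least 5.54-fold higher, and was under the floor on the PDGF-DD and PDGF-DD vehicle arrays. Abcc9, the sulphonylurea receptor subunit of ATP-sensitive channels, had an intensity of 54.1 with IL-1b against 216 with its vehicle, but was 1.13-fold higher than on the PDGF-DD vehicle array. Kcne4, an accessory subunit, had an intensity of 358 with PDGF-DD against 2301 with its vehicle, 6.42-fold lower, while with IL-1b it was 1.35-fold higher. Kcnq5, a voltage-gated channel, was 3.28-fold higher with PDGF-DD, although its other probe sets gave log2 ratios of -0.16 and 0.45.

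Of calcium channel subunits, Cacna1g, the pore of a T-type channel, had an intensity of 157 with IL-1b against 7.94 with its vehicle, at least 5.59-fold higher, and was under the floor on the other arrays. Of 6 genes in this list it alone was at least 2-fold apart with IL-1b, and of 4 with PDGF-DD only Cacnb3, an auxiliary subunit, was, at 2.40-fold lower. In the TRP and store-operated list 2 of 11 genes were higher with IL-1b and 0 lower. Orai2, a store-operated channel subunit, was 2.91-fold higher, with a log2 ratio of -0.62 by its other probe set, and Piezo1, a stretch-activated channel, 2.58-fold higher. Their vehicles were 1.79-fold and 1.89-fold apart. Against the PDGF-DD vehicle, Orai2 was 1.62-fold and Piezo1 1.36-fold higher with IL-1b. With PDGF-DD against its own vehicle 1 of 13, the polycystin gene Pkd1, was lower, by 2.13-fold, and 0 were higher.

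Pumps and exchangers of the plasma membrane went both ways. Slc8a1, the sodium-calcium exchanger, had an intensity of 124 with IL-1b against 818 with its vehicle, 6.60-fold lower, and of 332 with PDGF-DD against 276 with its vehicle. The vehicles of Slc8a1 were 2.97-fold apart, and with IL-1b it was 2.22-fold below the PDGF-DD vehicle. Slc24a3, a potassium-dependent exchanger, was 10.7-fold lower with IL-1b and 2.64-fold lower with PDGF-DD, with vehicles 6.85-fold apart; its other probe set gave a log2 ratio of -0.41 with IL-1b. Atp2b1, a calcium pump of the plasma membrane, was 1.96-fold higher with IL-1b and 2.02-fold higher with PDGF-DD, and Atp2b4, another, was at least 2.79-fold lower with PDGF-DD. Atp1b1, a sodium pump subunit, was 4.15-fold higher with IL-1b than with its vehicle and 1.66-fold lower than on the PDGF-DD vehicle array. Of 5 genes in this list 1 was higher and 2 lower with each factor.

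Ano1, the calcium-activated chloride channel, had an intensity of 221 with IL-1b against 44.7 with its vehicle, and 1000.3 with PDGF-DD against 209 with its vehicle. It was 4.95-fold and 4.79-fold higher, but its vehicles were 4.67-fold apart, and with IL-1b it was 1.06-fold above the PDGF-DD vehicle. It was the 1 of 6 chloride channel genes at least 2-fold apart with either factor. Among calcium-dependent kinases and NFAT genes, 1 of 14 was higher and 2 lower with IL-1b, and 0 of 13 higher and 2 lower with PDGF-DD. Camk2g, a calmodulin-dependent kinase, was 2.46-fold lower with IL-1b and 2.19-fold lower with PDGF-DD, while its other probe set gave log2 ratios of -0.16 and -1.07. Rcan1, a calcineurin inhibitor, was 2.01-fold lower with IL-1b. Of 7 caveolar genes 3 were lower with IL-1b, Cavin2 by 5.98-fold, Cav3 by 4.73-fold and Cav2 by 4.20-fold, and 1 with PDGF-DD, Cav3 by 2.04-fold. The other Cav2 probe sets gave log2 ratios between -3.08 and -0.81 with IL-1b. Against the PDGF-DD vehicle, Cav2 was 1.72-fold and Cav3 3.27-fold lower with IL-1b. Cavin2 was 3.72-fold higher with IL-1b than on the PDGF-DD vehicle array.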

How the data were processed

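Total RNA of 4 cultures, 1 per group, was hybridised to 1 Affymetrix array each after Trizol extraction and biotin labelling, per the labels' protocols. The authors' deposited table holds linear intensities per probe set. MAS5 produced them, per the submitters' processing notes, and its version and scaling target were not given in the sources used here. Its 4 columns share a median of 53.3. Arrays were rescaled to a common mean after trimming 2% at each end (factors 1.01, 1.03, 0.951 and 1.01 for IL-1b, its vehicle, PDGF-DD and its vehicle). Names came from the platform's 2016 annotation, which gives 1 symbol to 20832 probe sets, several to 436 and does not list 9831. Of the first, 20764 matched RefSeq (GRCr8) by gene identifier with 0 changed symbols. A gene was represented by its probe set of highest mean log2 intensity (values under the floor set to it). Genes were compared where at least 1 array of the pair exceeded the floor, and called at 2-fold. Steps were tested on simulated data with large known folds, set only on genes well above the floor. Genes near the floor, such as Pln and Kcnma1, were not covered by it. Named genes are all 10 genes of the set, up to 3 genes per list and comparison with the largest ratio, and the 5 profiles nearest to Cacna1c. Genes and lists were chosen with earlier results of these data known. Python 3.11.15, numpy 2.4.6 and pandas 2.3.3 were used.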

Additional observations from a re-analysis of the deposited data

Results flagged for a closer look

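Among the named genes, Itpr2 and Rcan2 were at least 2-fold apart in opposite directions with the factors; the difference was not tested, since each group is 1 array. Itpr2, an IP3 receptor, had an intensity of 103 with IL-1b against 47.5 with its vehicle, and 73.2 with PDGF-DD against 161 with its vehicle. Its log2 ratios were 1.11 with IL-1b and -1.14 with PDGF-DD, a difference of 2.25, and the vehicles were 3.39-fold apart. Rcan2, a calcineurin regulator, had an intensity of 366 with IL-1b against 145 with its vehicle, and 231 with PDGF-DD against 707 with its vehicle. Its log2 ratios were 1.33 and -1.61, a difference of 2.94, and the vehicles were 4.86-fold apart. For both genes the factor arrays lay between the vehicle arrays, and the other probe set of each ran the same way in both comparisons.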

How the results depend on the processing

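The choice of vehicle and the floor moved the counts of genes at least 2-fold apart in the set. With IL-1b the count of 5 became 1 against the PDGF-DD vehicle, 2 with the floor at the 60th percentile and 3 with the mean of all probe sets. With PDGF-DD the count of 1 became 5 against the IL-1b vehicle (where 10.3% of all genes were lower), 2 with the floor at the 20th percentile or with no floor, and 0 with the floor at the 60th percentile. Between the vehicles 4 became 2 with the higher floor and 2 with the mean of probe sets. For the difference between the factors 2 became 5 with the lower floor, 3 with the values as deposited, 1 with the higher floor and 1 with the mean. Of values at least 2-fold apart, 1 changed sign, Kcnma1 with IL-1b, 0.19 against the PDGF-DD vehicle. Another 6 values, all smaller and of Stim1 or Atp2a2, also did. Against the other vehicle Stim1 gave 0.41 with IL-1b and -0.93 with PDGF-DD, and Atp2a2 -0.53 and 0.30. With the mean of probe sets Atp2a2 gave -0.05 with IL-1b and Stim1 -0.13 with PDGF-DD. Pln and Kcnma1 with IL-1b fell under 2-fold with the mean of probe sets and the higher floor. Of 227 values of single genes under the alternatives, 209 moved by less than 0.58 on the log2 scale and 17 by more. The remaining 1, Kcnma1 with IL-1b against the PDGF-DD vehicle, also moved by more and is the sign change given above. Over all genes, 1236, 904 and 1087 genes apart in the IL-1b, PDGF-DD and vehicle comparisons became 2293, 1650 and 2026 with the lower floor and 793, 606 and 633 with the higher one, and PDGF-DD against the IL-1b vehicle gave 2076. A lower or higher floor admits more or fewer dim genes by construction; what separates the vehicles was not tested. No paired analysis was possible because each group is 1 array.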

Other observations

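The vehicle arrays differed from each other in channel and calcium genes outside the set of 10. Of 76 genes of the 8 wider lists above the floor, 7 were higher by 2-fold or more and 7 lower with the PDGF-DD vehicle than with the IL-1b vehicle, beside 5.79% and 4.67% of all genes. Cavin2, a structural protein of caveolae, was 22.2-fold lower there, at an intensity of 96.0 against 2133. Kcnk2, a stretch-sensitive potassium channel, was at least 7.12-fold higher, at 199.8 against 18.5. Atp1b1 was 6.90-fold higher, at 405 against 58.7, and Trpv2, a cation channel, at least 2.71-fold higher. Nfatc1, a calcium-regulated transcription factor, was at least 2.18-fold higher and Kcna6, a voltage-gated channel, at least 2.35-fold lower. The vehicles differ in BSA and acetic acid, and composition cannot be told apart from culture or array.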
